A study of Mus musculus with 6 samples.

Results

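The genes described are Ttr (transthyretin), the thyroid hormone receptor genes Thra and Thrb, the deiodinase gene Dio2 and the retinoid X receptor genes Rxra, Rxrb and Rxrg. They are 7 of the 22187 rows of the deposited gene table and were found by symbol, each in a single row. Ttr was chosen by its measured level, which appeared after denervation, so its values are a description and carry no test. The other 6 were taken for their place in the same signalling chain. Transcripts were measured in whole left gastrocnemius, a calf muscle, of male C57BL/6J mice aged 12 weeks on standard chow. Muscles of 3 normal mice are the controls. In 3 denervated mice the left sciatic nerve had been interrupted by cutting out a piece of 2 mm, and muscle was taken 2 weeks later. The control animals were normal and not labelled as sham-operated, so surgery and loss of the nerve cannot be told apart. Each library is a separate mouse.

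Transthyretin is a blood protein made mainly by the liver and, for the cerebrospinal fluid, by the choroid plexus. It carries thyroxine and, through retinol-binding protein, vitamin A. The deiodinase Dio2 converts thyroxine into the active hormone triiodothyronine inside cells, and the receptors made from Thra and Thrb bind that hormone in the nucleus. Those receptors usually act on DNA as a pair with a retinoid X receptor (RXR), which also pairs with retinoic acid receptors and with other nuclear receptors. In skeletal muscle, thyroid hormone is known to raise fast-fibre and calcium-pump genes and the use of fuel.

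Levels are TPM values (the share a gene takes of all transcripts in its library, with gene length taken into account) times a factor for each library. They are called scaled TPM below and given as mean ± SD over 3 mice. Rows above 0 numbered 17875 to 18204 per library in controls and 19007 to 20243 in denervated muscle, without overlap. The depth of the libraries is unknown, so no counting error could be given. Across genes, Spearman correlations lay between 0.940 and 0.956 for libraries of the same group and between 0.899 and 0.907 for libraries of different groups. Protein-coding rows made up 30.8% to 32.7% of the total in controls and 17.5% to 19.0% in denervated muscle, so the choice of total to which libraries are scaled bears on every fold change. The tissue label was checked against 8 genes of muscle fibres (among them Acta1, Ckm and Myh4), whose summed level was 29202 to 33095 in controls and 10465 to 12369 in denervated muscle. In whole muscle, fewer cells of a type and less RNA per cell cannot be told apart.

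Ttr was listed at 0 in all 3 controls. In denervated muscle it stood at 15.6, 15.5 and 14.04 scaled TPM, a mean of 15.0 ± 0.875. The denervated mice lay close together, and none came near the controls. Without the library factor the denervated values were 16.0, 15.1 and 13.1 TPM. By mean level Ttr took place 1863 of 22187 rows in denervated muscle. An exact 0 in a table without counts can be a failed estimate, so no fold change is given.

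Ttr was not alone in this pattern, but few rows shared its level. In all, 426 rows were listed at 0 in every control and above 0 in every denervated mouse, 257 of them protein-coding. Their median level in denervated muscle was 0.088 scaled TPM. Only 2 of the protein-coding rows had a mean of 10 or more, and these were S100a8, which encodes a calcium-binding protein of neutrophils, and Ttr in the second place. Over all 426 rows 7 had such a mean, with Ttr in place 5, and those that were not protein-coding were small RNAs. The opposite pattern, at 0 in every denervated mouse and above 0 in every control, was found in 24 rows, and none of them had a control mean of 1 or more. Denervated libraries also had more rows above 0 in all, as given above, and the part of this in the 426 and 24 rows was not tested.

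**Figure D1:**
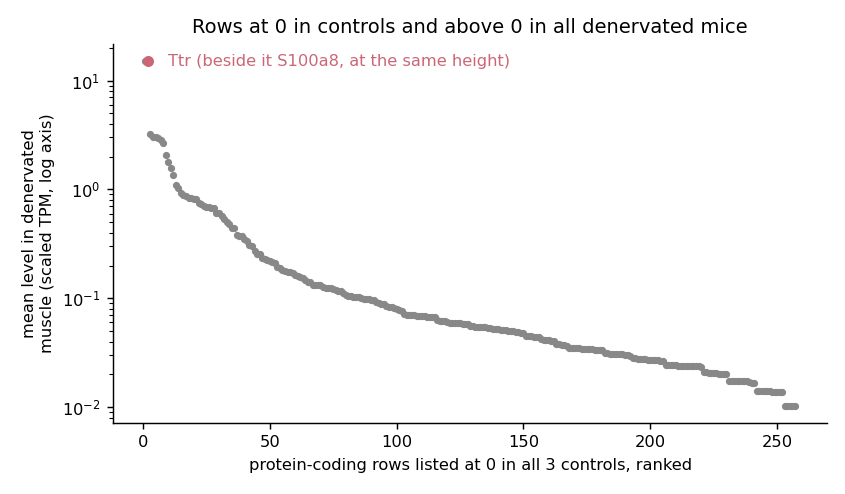
Mean level in denervated muscle (scaled TPM, log axis) of the 257 protein-coding rows listed at 0 in all 3 controls and above 0 in all 3 denervated mice, ranked from high to low. Ttr, at 15.0, and S100a8 stand apart from the other rows, whose means lie below 10.

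Most markers of tissues that are known to make transthyretin were low in both groups, but the liver and choroid plexus lists had higher sums after denervation. Of 10 hepatocyte markers, 5 were matched to a row of the deposited gene table, so nothing can be said of the others. Alb (albumin), Apoc3 and Fga were at 0 in every control and at no more than 0.088 in denervated muscle. Serpina1a was present in both groups, at 0.595 ± 0.164 in controls and 0.499 ± 0.137 in denervated muscle. The list summed to 2.76 to 4.58 in controls and 5.74 to 6.60 in denervated muscle, most of it from Trf (transferrin), at 2.77 ± 1.21 and 5.70 ± 0.324. The 8 choroid plexus markers summed to 0.393 to 0.632 in controls and 1.00 to 1.41 in denervated muscle. Among them Cldn2, a tight junction gene, was absent from the controls (listed at 0) and reached 0.625, 0.618 and 0.769 in the denervated mice. Folr1 and Otx2 went from 0 to at most 0.235 and 0.062, and Clic6 also had a higher mean. Kcnj13 went the other way, from 0.444 ± 0.128 to 0.251 ± 0.0871, and the means of Kl, Sostdc1 and Prlr were lower as well. Of 6 pancreatic islet markers only Pcsk2 was matched to a row, and it did not exceed 0.023 in any library. The part of these cell types in the Ttr level was not tested.

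By Euclidean distance over the 6 libraries on the log2(level + 1) scale, the 5 tested rows nearest to Ttr were Ankrd55 at 0.340, Gm830 at 0.388, Plekhh1 at 0.476, Igfbp2 at 0.531 and S100a8 at 0.587. Each of these was at most 0.161 in every control and at least 10.7 in every denervated mouse. Ttr had been chosen for such a pattern, so this likeness is a description.

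Dio2 was the least abundant of the 7 genes in denervated muscle. It was at 0.404, 0.483 and 0.372 scaled TPM in controls and at 0.557, 0.515 and 0.491 in denervated mice. The lowest denervated mouse was just above the highest control. Only 2 of 6 libraries reached the level of 0.5 that was required in 3 libraries, so Dio2 was not among the rows tested. The difference was 0.10 on the log2(level + 1) scale, on which a pseudocount of 1 shrinks the change of a gene as low as this. With no filter on low values the limma test gave an adjusted p of 0.312 (SE 0.063).

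**Figure D2:**
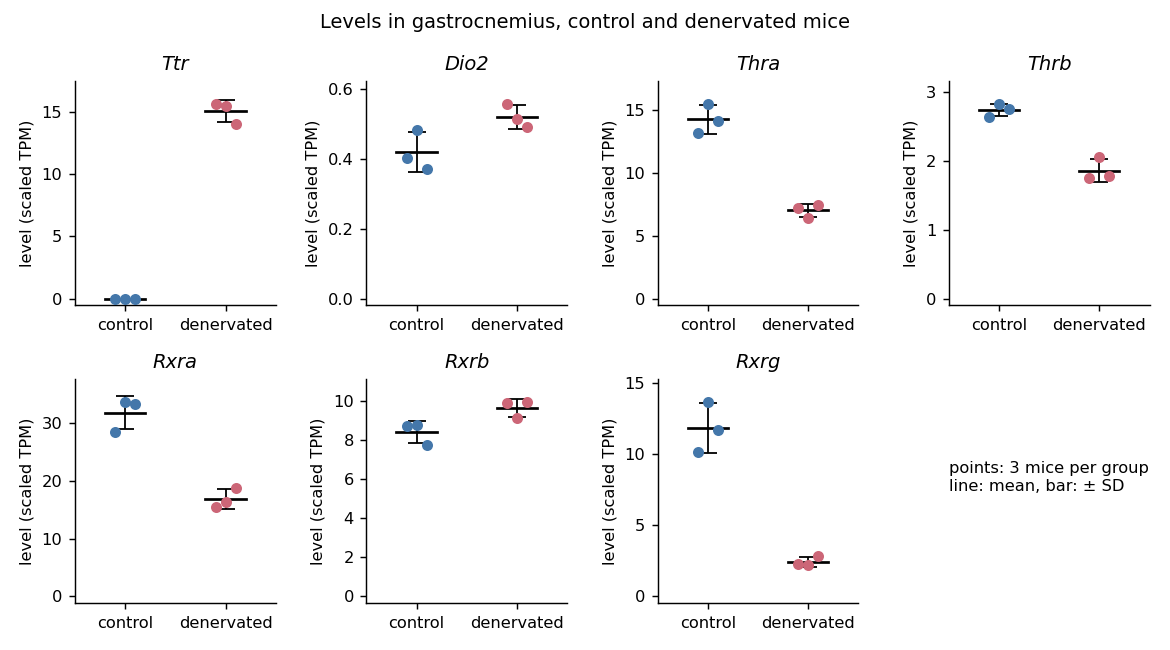
Level in scaled TPM of the 7 genes in each of 3 control and 3 denervated mice (points), with the group mean (line) and SD (bar), each panel on its own axis from 0. Ttr goes from 0 to 15.0, Rxrg from 11.9 to 2.42, and the groups do not overlap in any panel.

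More receptor genes were lower than higher after denervation. The groups were tested with limma over 12392 rows that reached 0.5 in at least 3 libraries, and a gene with a Benjamini-Hochberg adjusted p below 0.05 is said to be called. Of the 5 receptor genes, all of which were tested, 4 were called lower and 0 higher with values as deposited, against 24.3% of all tested rows called lower and 22.9% called higher (47.3% in either direction). These calls include Thrb, whose direction turned under another scaling. None of the 5 had overlapping groups, which was also true of 57.5% of all tested rows. Totals without the 20 most abundant rows gave 3 lower and 1 higher, against 13.0% and 40.1% of all rows. Equal protein-coding totals gave 1 lower and 2 higher, against 5.39% and 72.9%. That scaling moved the median log2 fold change of all rows from -0.01 to 0.61, and the former to 0.23. Fold changes less that median are therefore given as well.

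Thra, the main thyroid hormone receptor gene of muscle, stood at 49.3% of its control mean. It was at 13.1, 15.4 and 14.1 scaled TPM in controls and at 7.19, 6.43 and 7.40 in denervated mice. Every denervated mouse was well below every control. The log2 fold change was -0.93 (SE 0.096, limma adjusted p = 0.000174), or -0.91 less the median of all rows. With equal protein-coding totals it was -0.11 (adjusted p = 0.322), and -0.72 less the median. The table gives 1 value for the gene, so the hormone-binding receptor and the splice form that does not bind hormone are counted together. In GENCODE M21, 5.70% of its exonic bases also lie in exons of Nr1d1, a clock gene on the opposite strand. Whether counting used strand is not stated, so reads there cannot be assigned. Nr1d1 stood at 12.2 ± 1.18 in controls and 17.4 ± 3.40 in denervated muscle.

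Thrb, which encodes the second thyroid hormone receptor, changed less. Its levels were 2.65, 2.83 and 2.75 scaled TPM in controls and 1.75, 2.06 and 1.78 in denervated mice, without overlap. The log2 fold change was -0.39 (SE 0.089, limma adjusted p = 0.00875). The direction depended on the scaling, at -0.15 (adjusted p = 0.259) with totals without the 20 most abundant rows and 0.24 (adjusted p = 0.0469) with equal protein-coding totals. Less the median of all rows it was -0.38 as deposited and -0.37 under each of those 2 scalings.

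The balance between the receptors leaned towards Thra in both groups. Thra made up 83.2%, 84.5% and 83.7% of the summed Thra and Thrb level in controls and 80.4%, 75.8% and 80.6% in denervated mice. The shares did not overlap, and the mean differed by -4.87 percentage points. Such shares are formed within a library, so no scaling of libraries enters them. Their exact two-sided permutation test over 3 against 3 mice gave p = 0.1, the smallest it can give, and 0.1 after adjustment over the 4 shares tested here, those of the RXR genes included.

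The promoter windows of the receptor genes are shown because these receptors bind, as pairs, to repeats of AGGTCA, and because 4 of the 5 were called in the same direction as deposited. RefSeq windows on GRCm38.p6 were selected by symbol, with windows of the chromosome that carries Ttr left out. This gave 9 windows in all, for 5 of the 7 genes. The selection thus could not give a window for Ttr, and none was matched for the called gene Thra. Neither promoter was searched. The shares over all windows below still include the chromosome left out. The 250 bases before each transcript start were searched on both strands. AGGTCA was found in 14.02% of all 32851 such windows, and the E-box CANNTG in 66.2%. The direct repeat, AGGTCA followed by any 4 bases and AGGTCA again, was in 0.0152% of windows, and the MEF2 motif in 0.508%. Capitals mark AGGTCA and E-box matches, and AGGTCA is written TGACCT where it lies on the other strand.
Rxrg first start, chr1:167598112-167598361, plus strand: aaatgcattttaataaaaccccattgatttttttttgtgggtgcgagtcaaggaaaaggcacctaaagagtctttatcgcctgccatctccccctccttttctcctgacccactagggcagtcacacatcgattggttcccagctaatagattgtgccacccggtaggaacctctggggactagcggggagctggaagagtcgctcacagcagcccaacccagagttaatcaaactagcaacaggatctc
Rxrg second start, chr1:167618015-167618264, plus strand: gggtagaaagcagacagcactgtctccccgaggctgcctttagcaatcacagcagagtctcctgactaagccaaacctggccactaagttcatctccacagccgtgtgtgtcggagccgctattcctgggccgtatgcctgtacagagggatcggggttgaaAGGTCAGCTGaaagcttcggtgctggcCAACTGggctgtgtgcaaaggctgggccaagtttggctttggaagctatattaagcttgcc
Rxra second start, chr2:27709042-27709291, plus strand: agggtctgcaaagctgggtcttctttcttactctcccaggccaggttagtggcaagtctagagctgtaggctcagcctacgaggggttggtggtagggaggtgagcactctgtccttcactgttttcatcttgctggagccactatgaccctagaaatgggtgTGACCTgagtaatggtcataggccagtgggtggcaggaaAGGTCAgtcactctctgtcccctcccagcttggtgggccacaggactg
Thrb first start, chr14:17660710-17660959, plus strand: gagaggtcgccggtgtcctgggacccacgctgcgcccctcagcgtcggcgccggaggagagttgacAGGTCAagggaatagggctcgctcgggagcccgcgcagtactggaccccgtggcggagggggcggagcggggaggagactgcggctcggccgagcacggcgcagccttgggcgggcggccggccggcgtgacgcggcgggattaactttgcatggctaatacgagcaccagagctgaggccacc
The second start of Rxrg has AGGTCA at 88 bases before the start and an E-box, CAGCTG, at 84 bases that shares bases with it, with a further E-box at 61 bases. Its first start has no match to any of the 4 motifs. The second start of Rxra has AGGTCA at 87 bases on the other strand and at 48 bases, and the first start of Thrb has it at 184 bases. An E-box also lies 235 bases before the first start of Rxra and 193 bases before the second start of Thrb, in windows not printed here. Neither window of Rxrb and no window of Dio2 holds any of the 4 motifs. The direct repeat and the MEF2 motif are in none of the 9 windows. These matches are letters in a window and not sites of binding, and the levels in the table do not separate the starts of a gene.

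Rxrg, the RXR gene that is most restricted to muscle and brain, fell the most of the 6 genes other than Ttr, to 20.4% of its control mean. It was at 10.2, 13.7 and 11.7 scaled TPM in controls and at 2.26, 2.19 and 2.81 in denervated mice. The highest denervated mouse was far below the lowest control. The log2 fold change was -1.91 (SE 0.127, limma adjusted p = 1.97e-05). It was lower under all 5 other scalings, the smallest change being -1.18 with equal protein-coding totals (adjusted p = 0.000111), and -1.79 less the median there.

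Rxra was the most abundant RXR gene in both groups. Its levels were 28.5, 33.7 and 33.3 scaled TPM in controls and 15.5, 16.4 and 18.8 in denervated mice, with no overlap. The log2 fold change was -0.88 (SE 0.107, limma adjusted p = 0.000404). With equal protein-coding totals the value was -0.02 (adjusted p = 0.883), or -0.63 less the median of all rows.

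Rxrb, the RXR gene expressed most evenly across tissues, was not called as deposited. It was at 8.71, 8.76 and 7.77 scaled TPM in controls and at 9.89, 9.11 and 9.95 in denervated mice, so that every denervated mouse was slightly above every control. The log2 fold change was 0.18 (SE 0.088, limma adjusted p = 0.132). It was called higher at 0.49 with totals without the 20 most abundant rows (adjusted p = 0.00248) and at 0.99 with equal protein-coding totals (adjusted p = 3.72e-05), or 0.26 and 0.38 less the median of all rows.

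**Figure D3:**
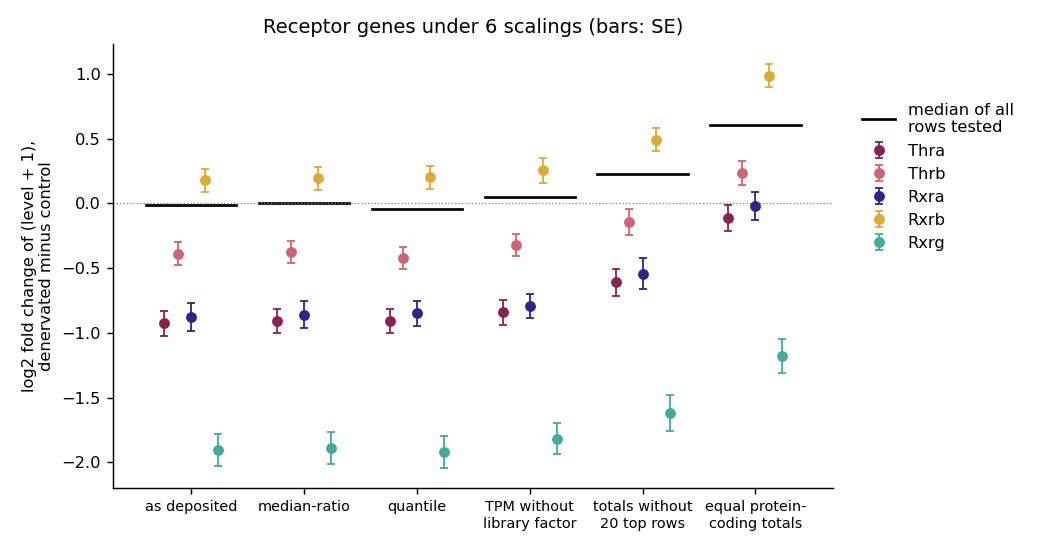
Log2 fold change of level + 1, denervated minus control, of the 5 receptor genes under 6 scalings, with SE bars, and the median of all rows tested as a black line. The order of the genes is the same throughout, from Rxrg at -1.91 to Rxrb at 0.18 as deposited, while all values shift upward with the median under the last 2 scalings.

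In the make-up of the RXR genes the share of Rxrb was larger and that of Rxrg smaller after denervation. The 3 shares of a library add up to the whole, so they are not separate results. As deposited, mean levels went from 31.9 to 16.9 for Rxra and from 11.9 to 2.42 for Rxrg. Rxrb went from 8.41 to 9.65 and was not called. Rxrb took 18.4%, 15.6% and 14.7% of the summed level of the 3 RXR genes in controls and 35.7%, 32.9% and 31.5% in denervated mice. Rxrg took 21.4%, 24.4% and 22.2% in controls and 8.16%, 7.92% and 8.90% in denervated mice. The share of Rxra moved less, from 61.1% ± 1.73 to 58.3% ± 1.91, a difference of -2.83 percentage points that was -1.83 without control 3 and -1.73 without denervated 1. None of the 3 shares overlapped between groups, and each exact two-sided permutation test gave p = 0.1, the smallest possible. The summed RXR level was 52.1 ± 4.40 scaled TPM in controls and 29.0 ± 2.26 in denervated muscle.

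**Figure D4:**
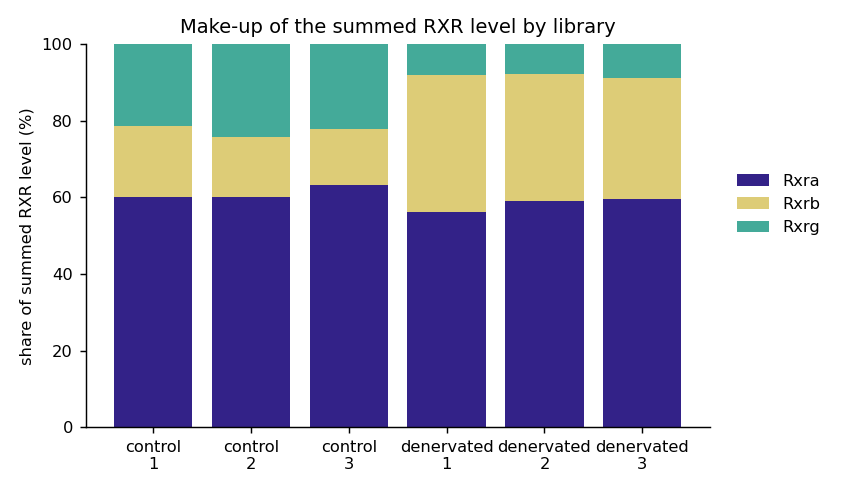
Share of Rxra, Rxrb and Rxrg in the summed RXR level (%) in each of the 6 libraries. Rxrg lies at 21.4% to 24.4% in controls and 7.92% to 8.90% in denervated mice, and the share of Rxrb is larger in every denervated mouse than in every control.

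The order of the 7 genes by level changed with denervation. In controls it ran Rxra, Thra, Rxrg, Rxrb, Thrb, Dio2 and Ttr, and only the neighbours Thra and Rxrg had overlapping ranges. In denervated muscle it ran Rxra, Ttr, Rxrb, Thra, Rxrg, Thrb and Dio2, and only Rxra and Ttr overlapped. Of the fibre markers given above, 8 of 8 were called lower as deposited (median log2 fold change -1.26), against 24.3% of all tested rows. With equal protein-coding totals 4 were called lower and 1 higher, against 5.39% and 72.9%. As deposited, Thra, Thrb, Rxra and Rxrg were called lower too, and Rxrb was not. The part of the lower fibre markers in the receptor values was not tested.

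For the tested receptor genes the nearest rows by the same distance were close in level as well as in shape. Mpnd was nearest to Thra at 0.212, Rps6ka5 to Thrb at 0.148, Pdpr to Rxra at 0.266, Hsf1 to Rxrb at 0.158 and Sel1l3 to Rxrg at 0.343. The next 2 were Znrf1 and Slc43a3 for Thra, Mynn and Eea1 for Thrb, Vegfb and Stat5b for Rxra, Iqcc and Abhd12 for Rxrb, and Sh3kbp1 and Map2k6 for Rxrg.

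Other genes of thyroid hormone entry and activation were higher more often than lower. Of 12 genes listed, 7 were tested, 4 called higher and 1 lower, and the list median was 0.35 on the log2 scale. Over all tested rows 22.9% were called higher and 24.3% lower, with a median of -0.01. With equal protein-coding totals 7 were called higher and 0 lower, with a median of 1.16. All rows then gave 72.9% higher and 5.39% lower, with a median of 0.61. With totals without the 20 most abundant rows the list median was 0.67, against 0.23 for all rows. Slc7a5, the light chain of an amino acid carrier that also takes up thyroid hormone, rose from 0.219 ± 0.0743 to 1.66 ± 0.0846 (log2 fold change 1.13, SE 0.088, limma adjusted p = 4.22e-05). Secisbp2, which is needed to insert selenocysteine into proteins such as the deiodinases, rose from 3.37 ± 0.565 to 5.40 ± 0.559. Slc16a10, which encodes the transporter MCT10, was called lower as deposited, from 6.52 ± 0.540 to 4.62 ± 0.194 (log2 fold change -0.42), and was -0.12 (adjusted p = 0.354) with totals without the 20 most abundant rows and 0.34 with equal protein-coding totals. Dio3, the deiodinase that inactivates the hormone, stayed below the filter at 0.0743 ± 0.0863 and 0.176 ± 0.0442. Crym, which binds triiodothyronine in the cytosol, was also below it, at 0.564, 0.376 and 0.925 in controls and 0.342, 0.216 and 0.085 in denervated mice, without overlap.

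Co-regulators of the thyroid hormone receptors were called in a direction that depended on the scaling. Of 14 tested, 6 were called lower and 0 higher as deposited, and 0 lower and 14 higher with equal protein-coding totals. All tested rows gave 24.3% lower and 22.9% higher as deposited, and 5.39% and 72.9% with equal protein-coding totals. The median log2 fold change of the list was -0.16 and 0.62, against -0.01 and 0.61 for all rows. The corepressor Ncor1 went from 43.5 ± 1.36 to 32.5 ± 0.791, its complex partner Gps2 from 18.3 ± 1.49 to 12.7 ± 0.401, and the coactivator-associated gene Thrap3 from 28.9 ± 2.89 to 20.6 ± 1.17. These 3 called values, of -0.41, -0.49 and -0.46, turned positive with equal protein-coding totals, and the median of the list turned positive (0.15) with totals without the 20 most abundant rows.

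Most genes known to respond to thyroid hormone were lower as deposited. Of 13 tested, 9 were called lower and 2 higher, against 4 lower and 5 higher with equal protein-coding totals. The shares over all tested rows were 24.3% lower and 22.9% higher as deposited, and 5.39% and 72.9% with equal protein-coding totals. The list median was -0.94 as deposited and -0.10 with equal protein-coding totals, the latter being -0.71 less the median of all rows. Hr, which encodes the nuclear corepressor hairless, fell from 28.5 ± 3.35 to 4.47 ± 1.55 (log2 fold change -2.46, SE 0.210, limma adjusted p = 6.37e-05). Slc2a4, the insulin-responsive glucose transporter, fell from 219 ± 9.54 to 60.3 ± 9.21. Hk2, a hexokinase, went from 49.6 ± 1.87 to 24.7 ± 2.06, a call lost with equal protein-coding totals (adjusted p = 0.293). The higher genes were Atp2a2, the calcium pump of slow fibres and heart, from 3.56 ± 0.154 to 13.2 ± 0.656, and Myod1, a myogenic transcription factor, from 11.9 ± 2.38 to 49.5 ± 4.10. Atp2a1, the calcium pump of fast fibres, was called lower as deposited, from 3328 ± 140 to 1348 ± 231 (log2 fold change -1.32, limma adjusted p = 0.000171). Thrsp was not called, at 4.18 ± 0.159 and 3.99 ± 0.417 (adjusted p = 0.663). Genes of this list respond to many other signals as well.

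**Figure D5:**
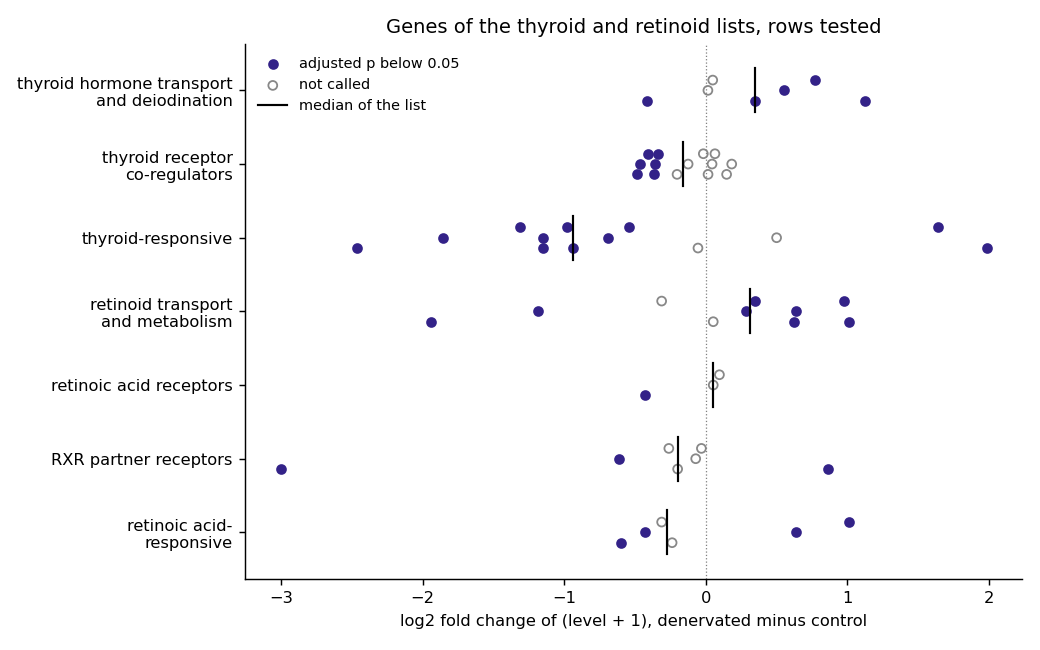
Log2 fold change of level + 1, denervated minus control, for tested genes of 7 lists, with genes called at an adjusted p below 0.05 filled and the list median as a black line. The thyroid-responsive list centres on -0.94, and the lists of thyroid hormone transport and of retinoid transport on 0.35 and 0.32.

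On the retinoid side, genes of retinol handling changed in both directions. Of 22 genes listed, 10 were tested, 6 called higher and 2 lower, against 22.9% and 24.3% of all tested rows. The list median was 0.32 on the log2 scale (0.81 with equal protein-coding totals), against -0.01 (0.61) for all rows. Only 3 were called higher without control 3, without denervated 1 or without denervated 3. Dhrs3, which reduces retinaldehyde back to retinol, rose from 8.67 ± 1.298 to 18.4 ± 1.45 (log2 fold change 1.01, SE 0.119, limma adjusted p = 0.00032). Rdh5, a retinol dehydrogenase, rose from 1.19 ± 0.596 to 3.24 ± 0.693. Aldh1a1, which oxidises retinaldehyde to retinoic acid, fell from 19.6 ± 1.25 to 4.38 ± 0.148 (log2 fold change -1.94, SE 0.085, limma adjusted p = 3.01e-06). Aldh1a2, which encodes another enzyme of that step, was called higher, from 1.34 ± 0.279 to 1.96 ± 0.0753 (log2 fold change 0.35, limma adjusted p = 0.0338). Rbp7, another retinoid-binding protein, fell from 3.34 ± 0.649 to 0.919 ± 0.395. Crabp2, a retinoic acid-binding protein, was below the filter, at 0, 0.107 and 0 in controls and at 0.381, 1.03 and 0.876 in denervated mice.

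Cell type markers changed in both directions. Over all tested rows 22.9% were called higher and 24.3% lower as deposited, and 72.9% and 5.39% with equal protein-coding totals. The 8 endothelial markers summed to 63.2 to 66.4 in controls and 34.8 to 39.5 in denervated muscle, with 6 called lower and 1 higher (3 and 2 with equal protein-coding totals). The 8 fibroblast markers summed to 448 to 550 and 219 to 260, with 6 called lower (2 lower and 2 higher with equal protein-coding totals). Macrophage markers summed to 16.4 to 19.7 and 34.8 to 39.3, with 5 of 8 called higher. Adipocyte markers summed to 96.3 to 120 and 50.2 to 64.0, most of it Fabp4, while 4 of 5 tested were called higher and 1 lower. Schwann cell markers summed to 21.0 to 24.5 and 8.83 to 10.1, with 3 of 6 tested called lower and 1 higher. Their part in the retinoid and receptor values was not tested.

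The retinoic acid receptors and the other partners of RXR were mixed. Rarb was the only 1 of the 3 retinoic acid receptor genes that was called, from 2.39 ± 0.347 to 1.51 ± 0.105 (log2 fold change -0.43, SE 0.106, limma adjusted p = 0.012), and it was 0.16 with equal protein-coding totals (adjusted p = 0.203). Rara stood at 3.17 ± 0.255 and 3.48 ± 0.584, and Rarg at 3.35 ± 0.280 and 3.52 ± 0.509. Of 11 other partners 7 were tested, 1 called higher and 2 lower. Over all tested rows 22.9% were called higher and 24.3% lower, so these few calls are not set apart from other genes. The list median was -0.20 as deposited and 0.21 with equal protein-coding totals. As deposited it was -0.07 without control 2, -0.12 without control 3 or without denervated 1, and -0.32 without denervated 2. Nr1h2, a receptor for oxysterols, rose from 10.1 ± 2.22 to 19.2 ± 3.29. Nr4a1, an orphan receptor induced by activity, fell by 3.00 on the log2 scale (SE 0.271, limma adjusted p = 8.45e-05). Ppara, a fatty acid receptor, went from 2.05 ± 0.177 to 0.990 ± 0.0882, a call lost with equal protein-coding totals (adjusted p = 0.395).

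Genes known to respond to retinoic acid showed no common direction. Of 12 listed, 6 were tested, and 2 were called higher (among them Dhrs3, given above) and 2 lower (Rarb and Tgm2). The shares over all tested rows were 22.9% higher and 24.3% lower. Tgm2, a transglutaminase, went from 12.5 ± 0.403 to 7.98 ± 1.27 (log2 fold change -0.60, limma adjusted p = 0.0038), and was 0.21 with equal protein-coding totals (adjusted p = 0.117). The list median was -0.28 as deposited, -0.17 without control 2 and 0.37 with equal protein-coding totals.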

How the data were processed

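RNA from 6 whole gastrocnemius muscles was sequenced as paired-end reads of 50 bp, per the labels' protocols. The submitters' processing notes list, with no role or order, RSEM 1.3.0, Bowtie2 2.2.9, edgeR 3.12.1 and the genome build NCBIM37. Nothing states the strand setting, filters or annotation release. The deposited signal has no stated unit. Below 100, 100% of values above 0 lay within 0.00055 of a multiple of 0.01 times a library factor of 0.977 to 1.13, so the deposited signal was read as TPM times that factor. It holds no counts, and no count test was run.

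Values were compared on log2(level + 1) with limma 3.58.1 (R 4.3.3, intensity trend, 4 residual degrees of freedom, two-sided), adjusted over 12392 rows at 0.5 or more in at least 3 libraries. The procedure was tested on simulated data. Shares were compared with exact permutation tests (scipy 1.17.1). The genes and lists were chosen with earlier results of these data known, and support nothing by being chosen. The text names the 7 genes, up to 3 called genes without overlap per direction and list with the smallest adjusted p, and the rows nearest to each tested gene. Other genes were added after their values were seen, and a few that the rule picks are not reported here. List members were matched by symbol or, in GENCODE M21, by identifier. The other scalings, filters, pseudocounts and variance models are given in the closing section. Promoters are on another build than the table, and no coordinates were joined to it.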

Additional observations from a re-analysis of the deposited data

How the results depend on the processing

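The 4 receptor calls (Thra, Thrb, Rxra and Rxrg) were made with the replicate block, without any single library, with pseudocounts of 0.1 and 0.01, with both other filters, without trend, with robust variances, and with TPM, median-ratio and quantile scaling. With the replicate block 5408 genes were called, against 5857. The replicate numbers name different mice in each group, so the main fit has no block. Same-numbered libraries had correlations of deviations of -0.0068, -0.0990 and 0.0194, and not every library correlated best with its own number. With so few mice these values cannot show whether same-numbered libraries were handled together.

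Scaling changed the calls of receptor genes and of named list genes, and the cause was not tested. With equal protein-coding totals 9704 genes were called, 93.1% of them higher against 48.5% as deposited. Totals without the 20 most abundant rows gave 75.5% higher. With equal protein-coding totals the log2 fold change was -0.11 for Thra, 0.24 for Thrb, -0.018 for Rxra, 0.99 for Rxrb and 0.40 for Dio2, and Ttr in denervated muscle averaged 21.5 scaled TPM. With totals without the 20 most abundant rows it was -0.15 for Thrb, 0.49 for Rxrb and 0.21 for Dio2, and Ttr averaged 17.1. Ttr stayed at 0 in controls. Dio2 was 0.26 and 0.31 with pseudocounts of 0.1 and 0.01. Its block, quantile, mean-level and variance-model alternatives were not run.

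Directions turned with equal protein-coding totals for Slc16a10 (0.34), Thrap3 (0.40), Ncor1 (0.46), Gps2 (0.35), Rarb (0.16) and Tgm2 (0.21). So did the medians of the co-regulators (0.62, and 0.15 with totals without the 20 most abundant rows), RXR partners (0.21), retinoic acid-responsive genes (0.37), endothelial markers (0.018) and fibroblast markers (0.22). The median of the retinoic acid receptors, 0.05, ranged from -0.038 to 0.094 when libraries were left out in turn, the negative value being without denervated replicate 3. Calls of 8 of 22 named list genes changed under some alternative, all of them scalings.

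Without each library in turn, calls over all rows ranged from 4846 to 5298, and calls over the 7 lists from 30 to 34, against 35. Called-lower co-regulators numbered 4 without denervated 1, against 6. The difference in share ranged from 16.0 to 18.2 percentage points for Rxrb, -14.9 to -13.5 for Rxrg, -3.48 to -1.73 for Rxra and -5.70 to -3.29 for Thra. The depth is unknown and the filter leaves out Dio2, so small changes of low genes could not be resolved.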

Other observations

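Among the other protein-coding rows listed at 0 in all 3 controls, chosen here after their values were seen, were Hamp and Ecel1. Hamp, which encodes the iron hormone hepcidin and is known mainly from the liver, stood at 3.19, 1.68 and 3.17 scaled TPM in denervated mice. Ecel1, an endopeptidase gene induced in injured neurons, stood at 3.55, 2.52 and 2.98.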
